A study of Mus musculus with 72 samples.

Results

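The genes described here are 8 genes of the B cell and plasma cell lineage, Ebf1, Pax5, Bach2, Cd79a, Cd79b, Ms4a1, Bank1 and Jchain, of 20105 genes counted in nuclei of mouse liver. They were chosen by name, with earlier results of these data known, and all 8 had a row in the table of counts. RNA was measured in whole liver nuclei of 36 mice and in hepatocyte nuclei of the same mice, giving 72 libraries. All mice, PBS controls included, carried CAG-Sun1/sfGFP and Albumin-Cre. In these Hep-INTACT mice the albumin promoter drives Cre in hepatocytes, which then display a fluorescent protein on the envelope of the nucleus and can be captured as tagged nuclei. BALB/c mice received PBS, C26 cells or NC26 cells, and C57BL/6N mice received PBS, 8025 cells or MC38 cells. C26 and 8025 cells were used as inducers of cachexia, a wasting of body mass, and NC26 and MC38 cells as tumours with stable weight. The C26 and 8025 cachexia livers come from animals that had lost over 10% of their weight, and the C26 pre-cachexia group is labelled as preceding that stage. Livers were taken at zeitgeber time 9 h. C26, NC26, 8025 and MC38 tumours were each matched by separate PBS animals, which gives 9 groups with 4 animals apiece, numbered here as in the labels. Age is not given in the labels used here.

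B cells recognise antigen through a membrane immunoglobulin that signals through the CD79A and CD79B chains. EBF1 and PAX5 are the transcription factors that set up and hold the B cell programme, and Cd79a is a classical target of both. BACH2 is a repressor that keeps activated B cells from turning early into plasma cells, and it also acts in T cells. MS4A1 (CD20) is a surface protein of mature B cells, BANK1 is a scaffold that links the receptor to calcium signalling, and the J chain joins IgM and IgA units in antibody-secreting plasma cells. In the liver, B cells sit among the lymphocytes of the sinusoids and portal tracts. In bulk RNA, fewer cells of a type and less RNA per cell cannot be told apart.

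Counts covered the whole gene span, introns included, so long genes collected far more counts than short ones. On mm10, Ebf1 lies on chromosome 11 from 44618100 to 45008096 on the plus strand, Bank1 on chromosome 3 from 136053364 to 136326066 on the minus strand, Pax5 on chromosome 4 from 44531506 to 44710440 on the minus strand and Bach2 on chromosome 4 from 32417435 to 32586108 on the plus strand. GENCODE vM21 exons filled 1.15% of the Pax5 span, 2.3% of Ebf1, 2.74% of Bank1 and 5.46% of Bach2, so these 4 genes were read mostly in introns. The other 4 genes are short. Ms4a1 lies on chromosome 19 from 11250603 to 11266151 (minus strand), Cd79a on chromosome 7 from 24897511 to 24902197 (plus strand), Cd79b on chromosome 11 from 106311341 to 106314529 (minus strand) and Jchain on chromosome 5 from 88519809 to 88527897 (minus strand). Their exons filled 28.3% (Cd79a) to 37.6% (Cd79b) of the span. No protein-coding gene overlaps any of the 8 spans, but antisense transcripts overlap Ebf1, Bank1, Pax5, Ms4a1 and Bach2, and without a stated use of strand their reads cannot be told apart.

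A RefSeq promoter sequence (GRCm38.p6) was at hand for 6 of the 8 genes. The 250 bases before the start that this source gives for Cd79a and for Bank1 are shown because these genes, both of the receptor pathway, had within-group levels that were uncorrelated (r = -0.02, given with the other pairs). Capitals mark 2 motifs searched on both strands, the E-box CAGGTG and the ETS core AGGAAG; in Bank1 the E-box is on the opposite strand and reads CACCTG. Each promoter holds 1 match of each motif, and the motifs do not overlap.
Cd79a, chr7:24897247-24897496, plus strand: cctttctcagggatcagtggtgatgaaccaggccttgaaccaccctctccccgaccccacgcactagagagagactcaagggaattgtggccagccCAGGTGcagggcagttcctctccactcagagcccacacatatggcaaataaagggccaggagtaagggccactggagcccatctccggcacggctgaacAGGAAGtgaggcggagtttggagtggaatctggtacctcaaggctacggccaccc
Bank1, chr3:136326067-136326316, minus strand: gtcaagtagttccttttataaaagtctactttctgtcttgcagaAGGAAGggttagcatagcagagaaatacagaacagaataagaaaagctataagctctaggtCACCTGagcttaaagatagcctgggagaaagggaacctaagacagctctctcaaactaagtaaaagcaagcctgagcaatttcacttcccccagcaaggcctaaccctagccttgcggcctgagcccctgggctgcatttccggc
In Cd79a the E-box begins 154 bases and the ETS core 55 bases before the start that the RefSeq promoter table uses, which lies upstream of the first base of the counted span. Of 32851 promoter sequences of this length, 17.2% hold the E-box and 29.5% the ETS core, so both are common. The EBF1 palindrome, TCCC and GGGA spaced by 2 bases, in 0.779% of all promoters, and the octamer ATGCAAAT, in 1.6%, had no exact match in the promoters of Ebf1, Pax5, Cd79a, Bach2, Bank1 or Jchain, and these 4 short patterns do not cover the variants that a factor can bind.

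Levels are given in CPM, counts scaled to a common library size, and are compared between genes per kilobase of the counted span. In whole liver nuclei, mean levels per kilobase over 36 libraries were highest for Bach2 (0.869 CPM per kb) and Bank1 (0.294), followed by Cd79b (0.170), Jchain (0.135), Cd79a (0.085), Ebf1 (0.074), Ms4a1 (0.060) and Pax5 (0.044). The counts behind these levels differ widely. Bach2 had 1053 to 8599 counts per library, Bank1 562 to 3964, Ebf1 152 to 1146 and Pax5 23 to 349. Jchain had 3 to 92, Ms4a1 3 to 48, Cd79b 3 to 28 and Cd79a 0 to 23, so single libraries of these short genes carry a large counting error. The library with no Cd79a count, C26 cachexia animal 2, allows a level of up to 0.114 CPM (3 counts; counting error only). Libraries held 12.2 to 30.3 M counts in whole liver nuclei and 8.49 to 56.4 M in hepatocyte nuclei, and 5 genes that collect reads resembling rRNA took 0.944% to 8.31% of a library. The labels give separate animals, so the spread below is between animals.

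**Figure D1:**
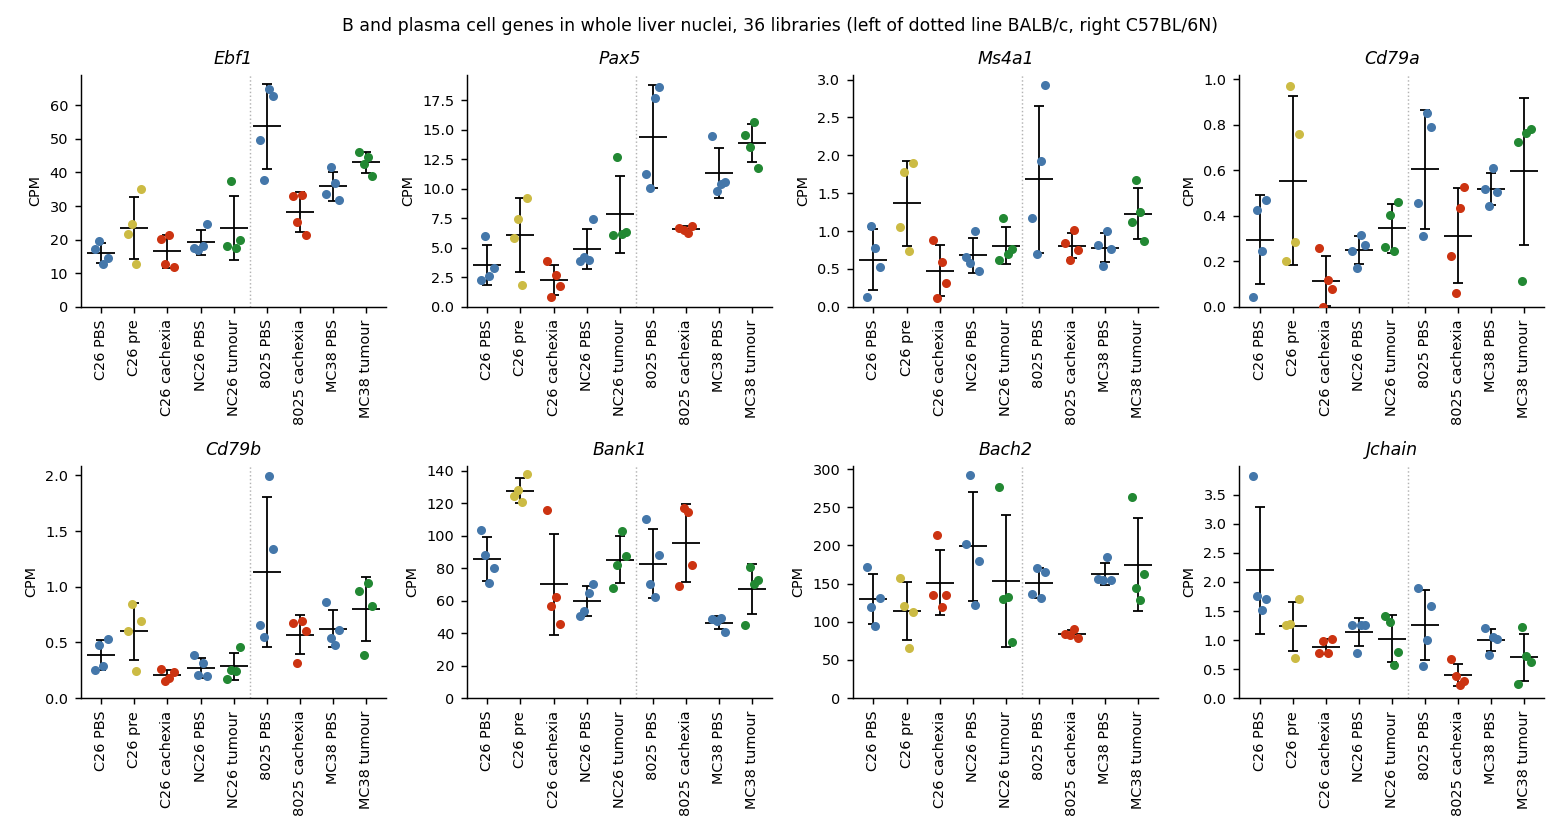
CPM of each gene in whole liver nuclei by group, with 1 point per animal, the mean as a horizontal bar and the SD as whiskers; each panel has its own linear axis from 0. Ebf1 and Pax5 lie lower in PBS animals left of the dotted line (BALB/c) than right of it (C57BL/6N), and Bank1 reaches 121 to 138 CPM in C26 pre-cachexia animals.

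The first question was which of these genes mark cells other than hepatocytes. In the 16 PBS animals, 6 of the 8 genes were lower in hepatocyte nuclei than in whole liver nuclei of the same livers. The fit did not pair both libraries of an animal, and 24.5% of 14054 genes tested were called lower. Bach2 and Jchain were not called in it. With each animal as a block they were, in opposite directions, as given below. Hepatocyte nuclei kept 10.9% of the whole liver level of Bank1, 11.7% of Pax5, 14.0% of Ebf1, 15.9% of Ms4a1, 16.2% of Cd79b and 24.9% of Cd79a. Adjusted p ran from 1.58e-27 (Bank1) to 3.79e-06 (Cd79a). The level was lower in hepatocyte nuclei in 16 of 16 animals for each of these genes except Cd79a (15 of 16, the exception being C26 PBS animal 1 with 1 count in whole liver nuclei).

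Markers of other non-hepatocyte cells were also lower in hepatocyte nuclei. All 10 Kupffer cell markers were lower, with a median log2 difference of -2.66, and so were all 10 sinusoidal endothelial markers (-2.65) and all 13 T and NK cell markers tested (-2.60). The medians were -2.64 over the 8 genes and 0.08 over all genes tested. Of 8 hepatocyte markers none was lower and 2 were higher. Of 53 other B lineage genes tested here, 40 were lower in hepatocyte nuclei, 4 were higher and 9 were not called. Counts over these lists below therefore include genes whose changes cannot be assigned to B cells.

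Bach2 was not lower in hepatocyte nuclei. Its level was 152 ± 41.9 CPM in whole liver nuclei and 168 ± 53.3 CPM in hepatocyte nuclei (SD, n = 16 animals), which is 109.9% of the whole liver level (log2 difference 0.14, SE 0.15, adjusted p = 0.462). With each animal as a block the difference was 0.13 and was called higher in hepatocyte nuclei (SE 0.029, adjusted p = 1.93e-04; 41.4% of all genes were called higher and 28.2% lower in that fit). On the joint scaling of all 72 libraries used for these values, Bach2 was lower in hepatocyte nuclei in 5 of 16 animals. With each fraction scaled by itself, as for levels elsewhere here, group means differed in direction. They were 129 CPM in whole liver and 147 CPM in hepatocyte nuclei for C26 PBS, and 199 and 214 CPM for NC26 PBS animals. For 8025 PBS animals they were 151 and 130 CPM, and for MC38 PBS animals 162 and 152 CPM. Changes of Bach2 in whole liver nuclei therefore cannot be assigned to B cells from these data. Jchain was at 1.32 ± 0.68 CPM in whole liver nuclei and 0.99 ± 0.40 CPM in hepatocyte nuclei (n = 16), which is 78.0% (log2 difference -0.36, SE 0.21, adjusted p = 0.141). It was lower in hepatocyte nuclei in 10 of 16 animals, and with the animal block it was called lower (-0.36, adjusted p = 0.0445). Changes of Jchain in whole liver nuclei therefore cannot be assigned to plasma cells from these data either. Hepatocyte nuclei thus held 10.9% to 24.9% of the whole liver level for 6 genes, whereas Jchain was called lower, and Bach2 higher, only with the animal block.

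**Figure D2:**
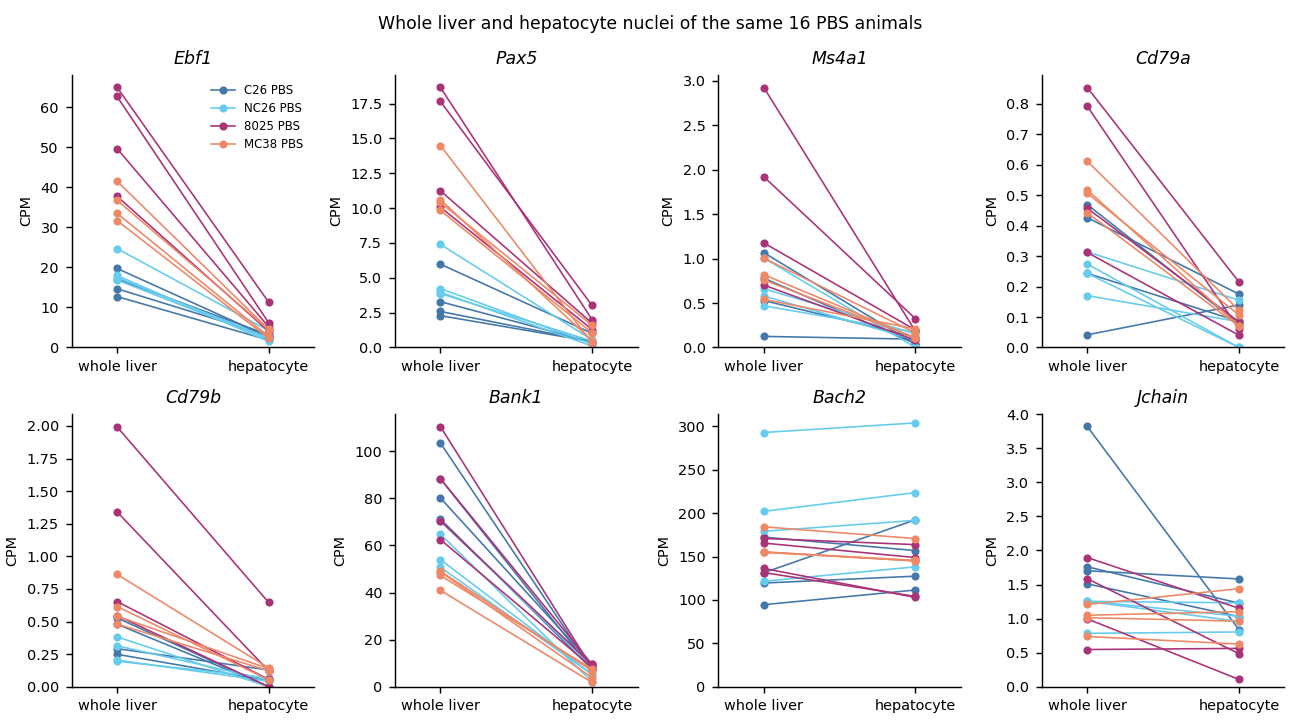
CPM in whole liver and hepatocyte nuclei of the 16 PBS animals, with a line joining both libraries of an animal and colours for the 4 PBS groups; linear axes from 0. Lines of 6 genes drop to 10.9% to 24.9% of the whole liver level, whereas Bach2 lines run level.

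The genes also differed in how they varied between animals of the same group. After group means were subtracted, Pearson's r of log2 CPM over the 36 whole liver libraries was 0.80 between Ebf1 and Pax5, 0.71 between Pax5 and Ms4a1 and 0.73 between Cd79a and Cd79b. All 10 pairs among these 5 genes had r between 0.38 and 0.80. Bank1 had r between -0.23 and 0.26 with the other 7 genes, Bach2 between -0.29 and 0.08, and Jchain between -0.24 and 0.32. These values describe 36 libraries that share depth and cell composition as sources of spread, and the low counts of the short genes weaken their r.

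Among 13738 genes, the genes most like each member by the same measure were looked up. For Pax5 they were Ikzf3 (r = 0.83), a lymphocyte transcription factor, Traf3ip3 (0.81) and Cpt1a (0.81). For Ms4a1 they included Fcmr (0.74), the receptor for IgM, and Tbc1d10c (0.73). For Ebf1 they were Pax5, Zfp521 (0.76) and Arhgef28 (0.76). For Bank1, none was among the other 7 genes. Those most like Bank1 were Adgre4 (0.90), an adhesion receptor of myeloid cells, and Ptprc (0.90), which encodes the leukocyte antigen CD45. Zeb2 (0.90), a transcription factor, came next. Changes of Bank1 in whole liver nuclei therefore cannot be assigned to B cells from these data. Cd79a was most like Cd79b, Irf7 (0.71) and Clstn1 (0.71), and Cd79b most like Hif1an (0.77), Cd79a and Des (0.70). Bach2 was most like Fgd6 (0.69), Nsmce2 (0.67) and Suv420h1 (0.66), and Jchain most like Polg2 (0.79), 2010315B03Rik (0.75) and Rnf14 (0.74).

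**Figure D3:**
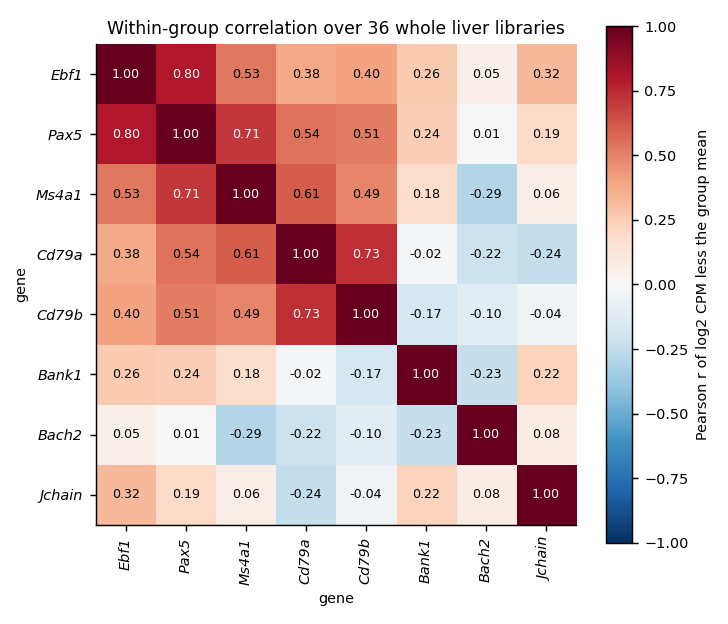
Pearson's r between the 8 genes over 36 whole liver libraries, from log2 CPM less the group mean; red is positive and blue negative. Ebf1, Pax5, Ms4a1, Cd79a and Cd79b form a block with r from 0.38 to 0.80, and Bank1, Bach2 and Jchain lie outside it.

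The strains differed in most of these genes. In PBS animals, 5 of the 8 genes were lower in BALB/c than in C57BL/6N whole liver nuclei (21.4% of 13738 genes were called lower, and 39.6% in either direction): Ebf1, Pax5, Cd79b, Cd79a and Ms4a1. Ebf1 was at 17.1, 19.7, 12.7 and 14.7 CPM in C26 PBS animals and 16.8 to 24.7 CPM in NC26 PBS animals. It was at 49.7, 37.8, 65.0 and 62.7 CPM in 8025 PBS animals and 33.5, 41.5, 36.8 and 31.7 CPM in MC38 PBS animals. Every BALB/c value lay below every C57BL/6N value, and the fitted level was 2.50-fold lower (log2 fold change -1.32, SE 0.18, adjusted p = 5.72e-07).

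Pax5 showed the same separation, with 2.28 to 5.97 CPM in C26 PBS, 3.86 to 7.40 CPM in NC26 PBS, 10.1 to 18.7 CPM in 8025 PBS and 9.83 to 14.5 CPM in MC38 PBS animals. It was 3.09-fold lower in BALB/c (log2 fold change -1.63, SE 0.26, adjusted p = 9.92e-06). The receptor chain Cd79b was 2.59-fold lower (0.331 ± 0.123 against 0.879 ± 0.529 CPM, n = 8 each; log2 fold change -1.38, SE 0.29, adjusted p = 3.73e-04), although its ranges overlapped. Its partner Cd79a was 2.12-fold lower (-1.08, SE 0.41, adjusted p = 0.0364) and Ms4a1 1.80-fold lower (-0.85, SE 0.33, adjusted p = 0.0381). Bank1 (log2 fold change 0.21, adjusted p = 0.295), Bach2 (0.04, 0.906) and Jchain (0.48, 0.145) were not called.

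The calls of Ebf1, Pax5 and Cd79b were also made within each series of library numbers, between C26 and 8025 PBS animals (4 of 8 genes lower, 15.3% of all genes) and between NC26 and MC38 PBS animals (3 of 8 genes lower, 10.0% of all genes). Within each series the strains still had separate blocks of library numbers, so strain, cohort and block cannot be told apart. The calls of Cd79a and Ms4a1 were less stable. Cd79a was not called within either series (adjusted p = 0.174 and 0.196), Ms4a1 not between NC26 and MC38 PBS animals (log2 fold change -0.24, adjusted p = 0.763), and without 8025 PBS animal 3 or 4, C26 PBS animal 1, MC38 PBS animal 1 or 3, or NC26 PBS animal 1 or 2 the count was 3. Within hepatocyte nuclei, Ebf1 (-0.88, adjusted p = 0.00849) and Pax5 (-1.53, adjusted p = 0.00197) were lower in BALB/c as well (20.7% of genes called lower).

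Of 53 other B lineage genes tested, from lists without the 8, 21 were lower in BALB/c, 2 were higher (Fcgr2b and Cd93) and 30 were not called. Within the series of library numbers, 23 were lower and 2 higher between C26 and 8025 PBS animals, and 5 were lower and 0 higher between NC26 and MC38 PBS animals, beside the shares of all genes given above. Of 15 genes of receptor signalling, 7 were lower in BALB/c and 1 higher. Plcg2, a phospholipase of the receptor pathway, was among those lower (log2 fold change -0.47, adjusted p = 0.00406). Of 13 tested genes of the B cell surface and homing, 8 were lower and none higher, and of 14 lineage factors 6 were lower, among them Bcl11a (-1.56, adjusted p = 2.01e-06). None of 8 tested plasma cell genes was called. T and NK cell markers were lower for 4 and higher for 1 of 12, and Kupffer cell markers lower for 2 and higher for 3 of 10. The part of lymphocyte content in general in the strain difference was not tested.

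**Figure D4:**
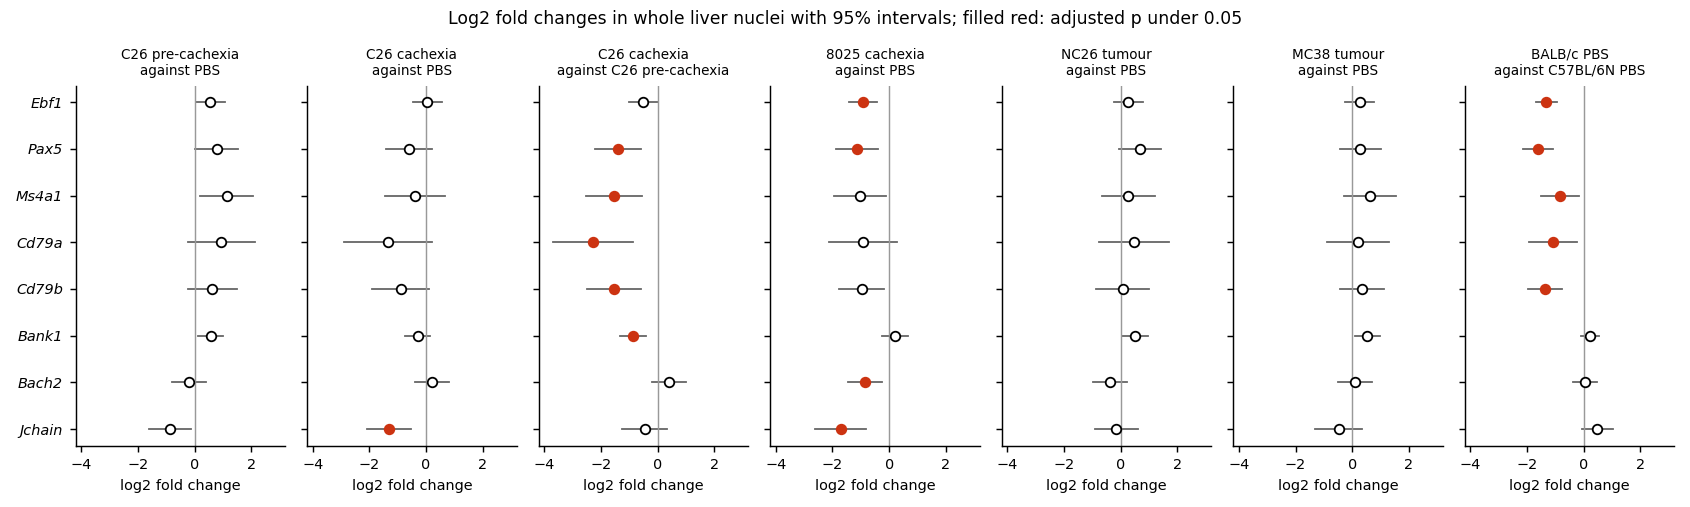
Log2 fold changes in whole liver nuclei (x axis) for each gene (rows) in 7 comparisons, with 95% intervals from the fit; filled red points were called at an adjusted p under 0.05. In 8025 cachexia, Ebf1, Pax5, Bach2 and Jchain are called lower, and between strains Ebf1, Pax5, Ms4a1, Cd79a and Cd79b.

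In 8025 cachexia, which addresses the liver of wasting C57BL/6N animals, 4 of the 8 genes were lower than in PBS animals (17.9% of genes were called lower and 36.6% in either direction). Ebf1 was at 33.1, 25.2, 33.2 and 21.5 CPM in cachexia and 49.7, 37.8, 65.0 and 62.7 CPM in PBS animals, a 1.90-fold lower level (log2 fold change -0.93, SE 0.25, adjusted p = 0.00384). Pax5 was at 6.67, 6.49, 6.26 and 6.86 CPM in cachexia and 11.2, 10.1, 17.7 and 18.7 CPM in PBS animals, 2.20-fold lower (-1.14, SE 0.36, adjusted p = 0.0136). For both factors the groups did not overlap. The highest values were those of PBS animals 3 and 4.

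Jchain showed the largest difference of the 8, at 0.672, 0.375, 0.232 and 0.302 CPM in cachexia and 1.90, 0.546, 0.996 and 1.59 CPM in PBS animals (log2 fold change -1.71, SE 0.44, adjusted p = 0.00267). The groups overlapped through PBS animal 2. Bach2 was at 84.7, 82.1, 90.1 and 79.4 CPM in cachexia and 136, 171, 132 and 166 CPM in PBS animals (-0.85, SE 0.29, adjusted p = 0.0233), without overlap. Its adjusted p was 0.0550 to 0.0641 without cachexia animal 2, cachexia animal 4 or PBS animal 2.

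The receptor chains and CD20 were lower in mean and not called: Cd79b -0.96 (adjusted p = 0.0512), Ms4a1 -1.04 (0.0696) and Cd79a -0.92 (0.229). Cd79b was called without PBS animal 1 (-1.16, adjusted p = 0.0278) or PBS animal 2 (-1.18, 0.0212), and Ms4a1 without PBS animal 2 (-1.29, 0.0296). Bank1 stood apart, at 69.1 to 117 CPM in cachexia and 62.5 to 110 CPM in PBS animals (0.21, adjusted p = 0.484). The median log2 fold change was -0.94 over the 8 genes and -0.02 over all genes tested.

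The wider B lineage lists split in 8025 cachexia. Of 15 receptor signalling genes, 8 were higher and 2 lower, the latter including Blk, a kinase of the receptor. The 8 higher were Plcg2 (1.49, adjusted p = 1.23e-07), Btk (1.32, adjusted p = 5.36e-06), Syk, Lyn, Fcgr2b, Ptprc, Cd72 and Prkcb. Most of them are also expressed by myeloid cells, and Lyn averaged 137 CPM in hepatocyte nuclei against 230 CPM in whole liver nuclei over all libraries. Of 14 lineage factors, 5 were higher, led by Spi1 (PU.1, 1.80, adjusted p = 1.62e-08) and Ikzf1 (1.18, adjusted p = 2.30e-06), and 3 lower (Ikzf3, Mef2c and Zfp318). Over all libraries Zfp318 averaged 97.5 CPM in hepatocyte nuclei and 88.1 CPM in whole liver nuclei. In the surface list, 3 of 13 were lower (Fcer2a, the IgE receptor CD23, at -1.57 with adjusted p = 0.0277, Fcmr and Fcrla) and 2 higher (Cd37, and Tnfrsf13b at 1.46 with adjusted p = 0.00472). Of 8 plasma cell genes 3 were higher and none lower: Irf4 (1.18, adjusted p = 4.76e-04), Prdm1 (0.78, adjusted p = 0.0429) and Sdc1 (0.90, adjusted p = 0.0073), which was called higher in hepatocyte than in whole liver nuclei of PBS animals. Of 4 tested precursor genes only Cd93 was called (0.90, adjusted p = 0.00182).

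Markers of other cells moved in the same livers. All 10 Kupffer cell markers were called higher, with a summed level of 610 to 944 CPM in cachexia and 270 to 340 CPM in PBS animals, and so were all 6 monocyte and neutrophil markers tested, with 71.4 to 100 CPM for the 10 listed genes against 6.47 to 9.88 CPM. None of 12 T and NK cell markers was called (54.8 to 126 CPM against 52.0 to 89.8 CPM summed), and hepatocyte markers summed to 10163 to 14307 CPM against 13386 to 20029 CPM. The part of these changes in the lower levels of Ebf1, Pax5, Bach2 and Jchain was not tested.

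**Figure D5:**
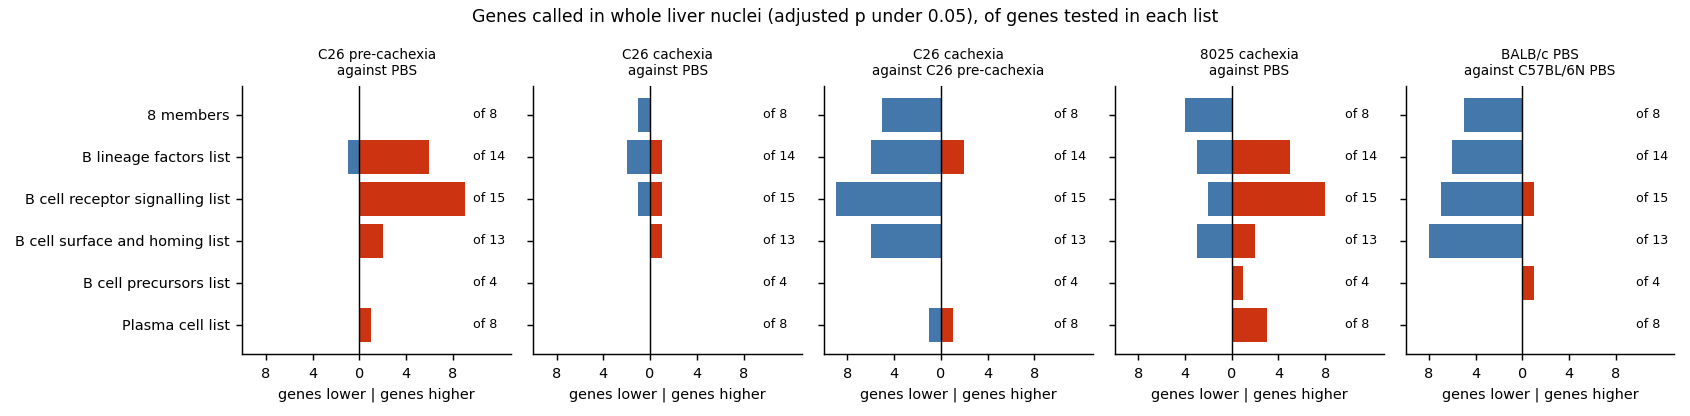
Number of genes called lower (blue, to the left) and higher (red, to the right) in whole liver nuclei for the 8 genes and for 5 further B lineage lists, with the number tested at the right of each row. In C26 cachexia against pre-cachexia and between strains the bars point mostly to the left, and in 8025 cachexia receptor signalling has 8 genes higher and 2 lower.

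In the C26 cohort, no gene of the 8 was called between pre-cachexia and PBS animals in whole liver nuclei (12.8% of genes were called). In edgeR 5 of 8 had an unadjusted p under 0.05, beside 3884 of all 13738 genes tested, and DESeq2 called none of the 8. Bank1 came nearest, at 124, 128, 121 and 138 CPM in pre-cachexia and 103, 88.3, 71.2 and 80.2 CPM in PBS animals. All pre-cachexia values were higher, but the test did not pass (log2 fold change 0.58, SE 0.22, adjusted p = 0.0744). Ms4a1 (1.14, adjusted p = 0.0979), Cd79a (0.95, 0.290), Pax5 (0.78, 0.166), Cd79b (0.63, 0.332) and Ebf1 (0.55, 0.143) had positive fold changes, and Jchain (-0.86, 0.113) and Bach2 (-0.18, 0.725) negative ones. Pre-cachexia animal 3 had the lowest level of its group in each of the 8 genes except Cd79a, and without it Ebf1 (0.75, adjusted p = 0.0292), Pax5 (1.09, 0.0269) and Ms4a1 (1.35, 0.0466) were called higher.

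Of 53 other B lineage genes tested, 18 were higher in pre-cachexia and 1 was lower. Of 15 receptor signalling genes, 9 were called higher and none lower, among them Plcg2 (0.95, adjusted p = 7.68e-04) and Btk (0.73, adjusted p = 0.0133). Of 14 lineage factors 6 were higher, among them Bcl11a (1.29, adjusted p = 0.00791) and Pou2f2 (1.18, adjusted p = 0.00174), and 1 lower (Foxo1). Over all libraries Foxo1 averaged 605 CPM in hepatocyte nuclei and 551 CPM in whole liver nuclei. Of 13 surface genes 2 were higher, Fcrl1 (1.68, adjusted p = 0.0165) and Cd180 (1.29, adjusted p = 0.00682), and of 8 plasma cell genes 1, Prdm1 (1.58, adjusted p = 6.74e-04), which macrophages and T cells also express. In the same animals 8 of 10 Kupffer cell markers were higher (513 to 679 CPM summed, against 330 to 436 CPM) and 4 of 12 T and NK cell markers (49.7 to 90.2 against 33.8 to 57.3 CPM). Their part in the B lineage counts was not tested.

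Between C26 cachexia and PBS animals, Jchain alone of the 8 genes was called, and it was lower (10.3% of genes were called lower and 22.1% in either direction). Jchain was at 0.780, 0.986, 0.769 and 1.01 CPM in cachexia and 3.82, 1.76, 1.51 and 1.70 CPM in PBS animals (log2 fold change -1.32, SE 0.38, adjusted p = 0.0111). The groups did not overlap, but PBS animal 1 had 92 counts against 29 to 33 in the other PBS animals, and without it the call was lost (-0.90, adjusted p = 0.105). Ebf1 was at 11.8 to 21.3 CPM in cachexia and 12.7 to 19.7 CPM in PBS animals (0.04, 95% interval -0.48 to 0.55, adjusted p = 0.936). For the short genes the intervals were wide, from -2.88 to 0.22 for Cd79a and from -1.91 to 0.11 for Cd79b. Bank1 (-0.29, adjusted p = 0.364) was called lower without cachexia animal 1 (-0.61, adjusted p = 0.0266), whose 116 CPM lay above every PBS value.

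Of the B lineage lists in this comparison, 3 of 53 tested genes were higher and 3 lower. Aff3 was the factor with the clearest rise (1.44, adjusted p = 1.52e-05), Prkcb rose (0.62, adjusted p = 9.62e-05), and Bcl6 (-1.75, adjusted p = 0.0405) and Blnk (-1.08, adjusted p = 0.0466) fell. Bcl6 and Blnk are also expressed by hepatocytes in these data (mean of 125 and 17.8 CPM in hepatocyte nuclei, against 102 and 19.0 CPM in whole liver nuclei). In the same livers 5 of 10 Kupffer cell markers were called higher (417 to 627 against 330 to 436 CPM summed), as were 5 of 6 monocyte and neutrophil markers tested (14.1 to 22.8 against 8.53 to 9.92 CPM for the 10 listed) and 3 of 10 sinusoidal endothelial markers (1343 to 1511 against 1175 to 1329 CPM). T and NK cell markers were lower for 2 of 12 (24.4 to 46.9 against 33.8 to 57.3 CPM). Their part in the values of the 8 genes was not tested.

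Set against pre-cachexia, C26 cachexia animals had lower levels of 5 of the 8 genes (6.94% of genes were called lower and 11.6% in either direction). This comparison shares its groups with both comparisons above. Bank1 was at 116, 56.8, 62.2 and 45.6 CPM in cachexia against 124, 128, 121 and 138 CPM in pre-cachexia, which were separate animals, without overlap. That was 1.82-fold lower (log2 fold change -0.87, SE 0.22, adjusted p = 0.00816). Pax5 was at 3.85, 0.872, 2.72 and 1.79 CPM against 5.86, 7.40, 1.84 and 9.18 CPM (2.63-fold lower; -1.39, SE 0.39, adjusted p = 0.0167), and only pre-cachexia animal 3 overlapped with cachexia animals.

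The genes with few counts followed. Cd79b was at 0.260, 0.152, 0.177 and 0.233 CPM against 0.606, 0.846, 0.245 and 0.697 CPM (-1.53, SE 0.47, adjusted p = 0.0276). Cd79a had 5, 0, 2 and 1 counts in cachexia against 4, 23, 7 and 12 counts (-2.28, SE 0.69, adjusted p = 0.0265). Ms4a1 had 17, 3, 10 and 4 counts against 21, 42, 18 and 30 (-1.53, SE 0.48, adjusted p = 0.0346). Ebf1 (-0.51, adjusted p = 0.217), Bach2 (0.41, 0.449) and Jchain (-0.46, 0.549) were not called.

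The 5 calls changed with the libraries in the fit. When only the 8 libraries compared were fitted, none was made: Bank1 was at -0.86 (adjusted p = 0.0665), Pax5 at -1.39 (0.143) and Ms4a1 at -1.52 (0.120), and Cd79a and Cd79b had too few counts to be tested. Without cachexia animal 4 none was made either, at log2 fold changes of -0.68 for Bank1, -1.28 for Pax5, -1.38 for Ms4a1, -2.17 for Cd79a and -1.56 for Cd79b (adjusted p 0.0653 to 0.118). Only Bank1 was called without cachexia animal 2, pre-cachexia animal 2 or pre-cachexia animal 4. Cachexia animals 2 and 4 had the lowest Pax5 levels of the 36 libraries. In the wider lists 22 of 53 tested B lineage genes were lower and 3 higher. Of 15 receptor signalling genes 9 were lower, such as Blnk (-1.75, adjusted p = 0.00347) and Btk (-0.65, adjusted p = 0.0264). Over all libraries Blnk averaged 17.8 CPM in hepatocyte nuclei and 19.0 CPM in whole liver nuclei. T and NK cell markers were lower for 7 of 12 (24.4 to 46.9 against 49.7 to 90.2 CPM summed) and Kupffer cell markers for 3 of 10, whereas hepatocyte markers summed to 16943 to 25166 CPM against 10276 to 13498 CPM. The part of these markers was not tested.

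Tumours without weight loss left no call among the 8 genes. In NC26 animals none was called (0.728% of all genes were). There 1679 of 13738 genes had an unadjusted p under 0.05, and DESeq2 called none of the 8. In MC38 animals none was called either (0% of all genes); edgeR called 0 genes there, 790 had an unadjusted p under 0.05, and DESeq2 called 14, none of them among the 8. Bank1 was the 1 gene of the 8 with an unadjusted p under 0.05 in each, with log2 fold changes of 0.51 (95% interval 0.06 to 0.95, adjusted p = 0.326) and 0.54 (0.09 to 0.98, adjusted p = 0.695). It was at 68.0, 82.1, 103 and 87.7 CPM in NC26 tumour animals against 50.7, 54.0, 64.7 and 70.3 CPM, so the groups overlapped slightly. Ebf1 was at 46.2, 42.5, 44.5 and 38.8 CPM in MC38 tumour animals against 33.5, 41.5, 36.8 and 31.7 CPM (0.26, 95% interval -0.24 to 0.76). NC26 tumour animal 2 stood above its group in Ebf1 (37.5 CPM) and Pax5 (12.7 CPM).

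Whether cachectic and weight-stable tumours differ in effect was tested as a difference of effects. Between 8025 and MC38 tumours Ebf1 was called (difference -1.19, SE 0.35, adjusted p = 0.0213; 5.96% of genes were called lower and 13.5% in either direction), and Pax5 (-1.43, adjusted p = 0.0534), Ms4a1 (-1.68, 0.0734) and Cd79b (-1.32, 0.102) were not. The Ebf1 call was lost without 8025 cachexia animal 4 (-1.04, adjusted p = 0.0557), and without 8025 PBS animal 2 Pax5 and Ms4a1 were called too. Between C26 and NC26 tumours none of the 8 was called (3.40% of genes were), and DESeq2 called none of them. In edgeR 3 of 8 had an unadjusted p under 0.05, beside 2249 of 13738 genes tested, with Bank1 (-0.80, adjusted p = 0.163) and Pax5 (-1.29, adjusted p = 0.200) lowest in p. Without C26 cachexia animal 1, Bank1 was called (-1.09, adjusted p = 0.0151). Between C26 and 8025 cachexia none of the 8 was called (6.57% of genes were), and DESeq2 called none of them. There 2 of 8 had an unadjusted p under 0.05, beside 2874 of 13738 genes tested, and the Ebf1 difference was 0.97 (95% interval 0.24 to 1.69, adjusted p = 0.0949). Cachectic and weight-stable tumours came in different series of library numbers, so kind of tumour and series cannot be told apart between cohorts.

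PBS animals of the same strain were compared because the cohorts differ in library number series. None of the 8 genes was called between NC26 and C26 PBS animals (10.9% of genes were), and DESeq2 called none of them. There 3 of 8 had an unadjusted p under 0.05, beside 3729 of 13738 genes tested. Between MC38 and 8025 PBS animals edgeR called none of the 8 either (0.466% of genes were called), and DESeq2 called Bank1. In that comparison 4 of 8 had an unadjusted p under 0.05, beside 2610 of 13738 genes tested. Bank1 was lower in mean in MC38 than in 8025 PBS animals (46.5 ± 3.81 against 82.9 ± 21.3 CPM, n = 4 each, adjusted p = 0.0623), and it was called without 8025 PBS animal 2 or 3. In the order of the 9 group means, the ranges of neighbouring groups overlapped for all genes except at the ends of the Bank1 order, where C26 pre-cachexia lay above 8025 cachexia and MC38 PBS lay below NC26 PBS. Highest group means were those of 8025 PBS for Ebf1 (53.8 ± 12.6 CPM), Pax5 (14.4 ± 4.38), Ms4a1 (1.68 ± 0.97), Cd79a (0.604 ± 0.261) and Cd79b (1.13 ± 0.673), NC26 PBS for Bach2 (199 ± 71.2) and C26 PBS for Jchain (2.20 ± 1.09; SD, n = 4 each). Lowest were those of C26 cachexia for Pax5 (2.31 ± 1.27), Ms4a1 (0.475 ± 0.336), Cd79a (0.114 ± 0.109) and Cd79b (0.206 ± 0.0498), of C26 PBS for Ebf1 (16.1 ± 3.04), and of 8025 cachexia for Bach2 (84.1 ± 4.57) and Jchain (0.395 ± 0.194).

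In hepatocyte nuclei only Ebf1, Bank1, Pax5, Bach2 and Jchain had enough counts to be tested. Ms4a1, Cd79a and Cd79b were at 0 in 4, 7 and 10 of 36 libraries, and a count of 0 there allows up to 0.0810 to 0.158 CPM, depending on the library. Bach2 fell in 8025 cachexia, as in whole liver nuclei, from 103, 164, 104 and 149 CPM in PBS animals to 76.9, 72.4, 77.6 and 69.9 CPM (log2 fold change -0.81, SE 0.30, adjusted p = 0.0405; 13.1% of genes were called lower). The groups did not overlap, but the call was lost in 6 of 8 fits that leave out 1 animal (log2 fold changes from -0.68 to -0.83, adjusted p up to 0.123) and with RLE scaling (-0.78, 0.0502). Jchain fell in C26 cachexia, from 0.838, 1.23, 1.03 and 1.58 CPM in PBS animals to 0.839, 0.355, 0.396 and 0.351 CPM (-1.29, SE 0.45, adjusted p = 0.0371; 10.0% of genes were called lower and 22.2% in either direction), with overlap through cachexia animal 1, and this call was lost in 5 of 8 such fits (-1.12 to -1.29, adjusted p up to 0.102). Jchain in 8025 cachexia (-1.13, adjusted p = 0.0922) and Bank1 there (0.67, adjusted p = 0.113) were not called, although Jchain was without cachexia animal 2 or PBS animal 3. None of the 5 tested genes was called in hepatocyte nuclei for C26 pre-cachexia (7.72% of genes were), C26 cachexia against pre-cachexia (9.09%), NC26 (0.324%) or MC38 tumours (0%, with 572 genes at an unadjusted p under 0.05 and 6 called by DESeq2). Of these 5 genes, 1, 0, 1 and 0 had an unadjusted p under 0.05 in those comparisons, beside 3142, 2917, 1579 and 572 of 13274 genes tested. DESeq2 called none of the 5.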

How the data were processed

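RNA from whole liver nuclei and from captured hepatocyte nuclei of 36 mice was sequenced as 50-base read pairs with a stranded kit, per the labels' protocols. The authors deposited raw counts per gene for 72 libraries; per the file headers a length for counting stood beside each gene, and for all but 946 of 20105 genes it equalled the full transcribed span, introns included. The submitters' processing notes name STAR 2.4.2a, the build mm10 and DESeq2 1.24.0; how strand was used in counting is not given in the sources used here. The 8 genes and all gene lists were chosen with earlier results of these data known.

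Counts were tested as deposited with edgeR 4.0.16 (R 4.3.3; TMM scaling, filterByExpr, quasi-likelihood F test, Benjamini-Hochberg adjustment over all genes tested). Each fraction was fitted with its 9 groups together (13738 genes in whole liver nuclei, 13274 in hepatocyte nuclei, 27 residual degrees of freedom), and both fractions in a joint fit of 72 libraries (14054 genes). In the comparison of fractions, CPM and counts of animals use the scaling of the joint fit unless stated. Other CPM, and those drawn in the figures, use the scaling of their own fraction. Called means an adjusted p under 0.05. Log2 fold changes are the first group less the second, and SE is the absolute log2 fold change over the square root of F. The 95% intervals use a t value with 27 degrees of freedom, so they need not match the p-values of the F test exactly. DESeq2 1.42.0 was an alternative. The counting interval for a count of 0 covers counting error only.

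All 8 genes are reported. Genes of the B lineage lists were named by a rule on the called genes: up to 2 per list and comparison, with the largest absolute log2 fold change at a mean of at least 0.5 CPM; the other called genes are listed by symbol, and values of named genes in further comparisons are given beside them. Some genes that this rule or the search for like patterns names are not reported here, and values of other named genes of the same list stand in their place where given. Zfp521, Cpt1a and the other genes of like pattern were the 3 with the highest Pearson's r of log2 CPM (prior count 2). Of the 75 B lineage list genes, 62 were in the table of counts. The 13 immunoglobulin genes of the lists had no row there under the symbols searched, so they could not be analysed. The scripts were tested on simulated data. No 2 replicate libraries were identical (108 pairs; chi-square per degree of freedom 22.7 to 372).

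Libraries of the 2 fractions came from the same animals, and for 35 of 36 animals the deviations of both libraries from their group means matched best within the animal (median r = 0.608).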

Additional observations from a re-analysis of the deposited data

Results flagged for a closer look

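Of 144 sets of 4 animals (8 genes, 18 groups of libraries), 16 held 1 animal far from the other 3 by Dixon's criterion, and chance alone flags about 1 set in 20.

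NC26 tumour animal 2 was far above its group in Ebf1 (37.5 CPM) and Pax5 (12.7 CPM) of whole liver nuclei and in Ebf1 of hepatocyte nuclei (5.73 CPM). NC26 PBS animal 4 was above its group in Ebf1 (24.7 CPM) and Pax5 (7.40 CPM) of whole liver nuclei. Pax5 was also high in MC38 PBS animal 1 (14.5 CPM, whole liver nuclei) and in C26 PBS animal 2 (1.02 CPM, hepatocyte nuclei). Bank1 was high in C26 PBS animal 4 (9.57 CPM, hepatocyte nuclei). Cd79a was low in MC38 tumour animal 2, at 0.112 CPM from 2 counts in whole liver nuclei.

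Bach2 stood out in both fractions of the same animals. C26 cachexia animal 2 had 214 CPM in whole liver nuclei and 234 CPM in hepatocyte nuclei, and MC38 PBS animal 3 had 184 CPM and 171 CPM. Jchain was high in whole liver nuclei of C26 PBS animal 1 (3.82 CPM), low in those of NC26 PBS animal 2 (0.783 CPM), and high in hepatocyte nuclei of C26 cachexia animal 1 (0.839 CPM).

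The effect of 8025 cachexia on Ebf1 in whole liver nuclei differed from the effect of MC38 tumours by -1.19 on the log2 scale (SE 0.35, edgeR adjusted p = 0.0213). Ebf1 was lower in 8025 cachexia than in its PBS animals and not called between MC38 tumour and PBS animals.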

How the results depend on the processing

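No direction of a called gene reversed under any alternative run. Without each animal in turn, the number of the 8 genes called in whole liver nuclei ran from 3 to 5 for 8025 cachexia and for strain, 0 to 6 for C26 cachexia against pre-cachexia, 0 to 2 for C26 cachexia, 0 to 3 for C26 pre-cachexia and for 8025 less MC38, and 0 to 1 for C26 less 8025, C26 less NC26 and MC38 against 8025 PBS; it stayed at 6 for the fractions and at 0 for NC26, MC38 and NC26 against C26 PBS. In hepatocyte nuclei it ran from 0 to 2 for 8025 and 0 to 1 for C26 cachexia, and stayed at 0 in the other comparisons. A group left with 3 animals shares its spread with the other groups of the fit.

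Fitting only the libraries compared called 0 genes for C26 cachexia against pre-cachexia, 3 for 8025 less MC38, 2 for 8025 in hepatocyte nuclei, and 1 each for C26 pre-cachexia (Bank1), C26 less 8025 (Bach2) and NC26 against C26 PBS (Bank1). DESeq2 called 2 for 8025 less MC38 and 1 for MC38 against 8025 PBS. RLE scaling called 0 for 8025 in hepatocyte nuclei. Strain had 3 with no filter on low counts and 3 between NC26 and MC38 PBS animals. Replicate numbers did not meet the criterion for pairing (every pair of 2 groups over r = 0.1): r ran from -0.238 to 0.161 in whole liver nuclei (4 of 24 pairs over 0.1) and from -0.266 to 0.395 in hepatocyte nuclei (7 of 24). With the replicate block, strain had 3, C26 cachexia against pre-cachexia 2, 8025 less MC38 0 and C26 cachexia in hepatocyte nuclei 0; with the animal as block, Bach2 and Jchain were called between fractions. The cause of these shifts was not tested.

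Over all genes, fitting only the libraries compared gave 2981 calls for 8025 cachexia (5026 with all groups), 1124 for 8025 less MC38 (1861), 1061 for C26 cachexia against pre-cachexia (1597; hepatocyte nuclei 607 against 1206), 1944 for C26 cachexia in hepatocyte nuclei (2953), 515 for C26 less 8025 (902), 740 for C26 less NC26 (467), 339 for C26 pre-cachexia in hepatocyte nuclei (1025) and 2 for MC38 against 8025 PBS (64). The latter had 350 with DESeq2, 37 with no filter and 4 with the replicate block. The block gave 304 for C26 less NC26, 822 for NC26 against C26 PBS (1494), 49 for NC26 tumours (100) and 1 for MC38 in hepatocyte nuclei (0). DESeq2 gave 199 for NC26 (hepatocyte nuclei 141 against 43), and NC26 against MC38 PBS animals gave 2477 (5443 for both series). With unscaled library sizes, 8025 cachexia levels were 91.6 CPM (Bach2), 7.15 CPM (Pax5) and 80.0 CPM (Bach2 in hepatocyte nuclei). Few counts limit Cd79a, Cd79b, Ms4a1 and Jchain.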
